A study of Mus musculus with 12 samples.

Results

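The genes described here are 31 genes of the synapse in mouse brain, taken by symbol from a count table of 25124 genes. Of these, 18 act on the presynaptic side (synaptic vesicle proteins, the fusion machinery, the active zone, vesicular glutamate transporters and neurexins). The other 13 act on the postsynaptic side (neuroligins, scaffold proteins of the postsynaptic density and calmodulin signalling). All 31 passed the filter on low counts. The RNA came from brain hemispheres collected 28 days after ischemic stroke, made by blocking the middle cerebral artery (MCAo), in mice with or without inducible DKK1, an extracellular inhibitor of the Wnt pathway. The 4 groups of 3 libraries were DKK1 ipsilateral (lesioned hemisphere), DKK1 contralateral (intact hemisphere), wild-type ipsilateral and wild-type contralateral. DKK1 mice carried 3 alleles. Gt(ROSA)26Sortm1.1(rtTA,EGFP)Nagy places the doxycycline-dependent activator rtTA at ROSA26, a locus active in most tissues. Hprttm1(tetO-Dkk1)Spdl places the inducible Dkk1 transgene at Hprt. Tg(TCF/Lef1-lacZ)34Efu/J is a reporter of Wnt signalling. Wild-type mice were C57BL6/J. All mice of both genotypes had the stroke and received doxycycline at 200 mg/kg, with induction 3 days after MCAo. No group carried the transgenes without doxycycline, so effects of the alleles or strain background and of DKK1 itself cannot be told apart. Nothing in the labels ties each library to an animal of its own. The p-values therefore reflect variation among these libraries alone, part of which may be technical.

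At a chemical synapse the presynaptic terminal stores neurotransmitter in vesicles. An action potential opens calcium channels, calcium binds synaptotagmin on the vesicle, and the SNARE proteins of vesicle and plasma membrane zip together and fuse the membranes. Active zone proteins hold vesicles and calcium channels at the release site, neurexins and neuroligins join the membranes across the cleft, and scaffold proteins anchor glutamate receptors opposite. In stroke, neurons of the infarct core die and synapses around it are lost and partly rebuilt over weeks, so transcripts of these genes serve as measures of neuronal tissue as well as of synapses.

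Total counts ran from 21209920 to 26911840 per library. Dkk1 itself had 32, 7 and 44 counts in DKK1 ipsilateral, 13, 5 and 4 in DKK1 contralateral and 0 in all 6 wild-type libraries. The first principal component held 73.8% of the variance and set the hemispheres apart. Wild-type ipsilateral 1 lay at −70.9 on it, among the DKK1 ipsilateral libraries (−62.8 to −83.8) and away from wild-type ipsilateral 2 and 3 (−29.2 and −37.1). Wild-type contralateral 1 (41.2) lay nearer the lesioned side than wild-type contralateral 2 and 3 (72.5 and 63.3). Beside each gene group the wild-type lesion calls are therefore also given without wild-type ipsilateral 1 and contralateral 1, a setting chosen after seeing the data. It has 1 fewer library in each wild-type group and so less power. The share of all genes called in it is not given here. The brain label held against its markers: all 12 pan-neuronal markers and all 7 astrocyte markers were detected in every library.

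The members spanned a wide range of abundance. Levels between genes are compared on the deposited TPM (a unit scaled by transcript length and library size). There, 17 of the 31 members are listed under a different transcript than in the count table. Neurogranin (Nrgn) was the most abundant in DKK1 ipsilateral libraries at 503 ± 13.6 TPM, against 688 ± 47.7 TPM in wild-type contralateral libraries (SD, n = 3 each). Snap25 followed at 474 ± 15.9 TPM in DKK1 ipsilateral and 622 ± 29.7 TPM in wild-type contralateral libraries, and Camk2a at 362 ± 19.4 TPM and 459 ± 12.8 TPM in the same groups. In DKK1 ipsilateral libraries Nrgn and Snap25 overlapped in level, while in wild-type contralateral libraries all 3 were separated. At the low end stood Slc17a6 at 9.07 ± 2.69 TPM in DKK1 ipsilateral and 13.7 ± 2.31 TPM in wild-type contralateral libraries. Nlgn1 stood beside it at 8.01 ± 0.769 TPM in DKK1 ipsilateral and 11.4 ± 1.07 TPM in wild-type contralateral libraries. These lowest neighbours overlapped in both groups. The order of the members changed little between groups: Nrgn, Snap25, Camk2a, Syp and Vamp2 filled the top 5 places in all 4 groups, and Dlgap2, Slc17a6 and Nlgn1 the bottom 3.

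**Figure D1:**
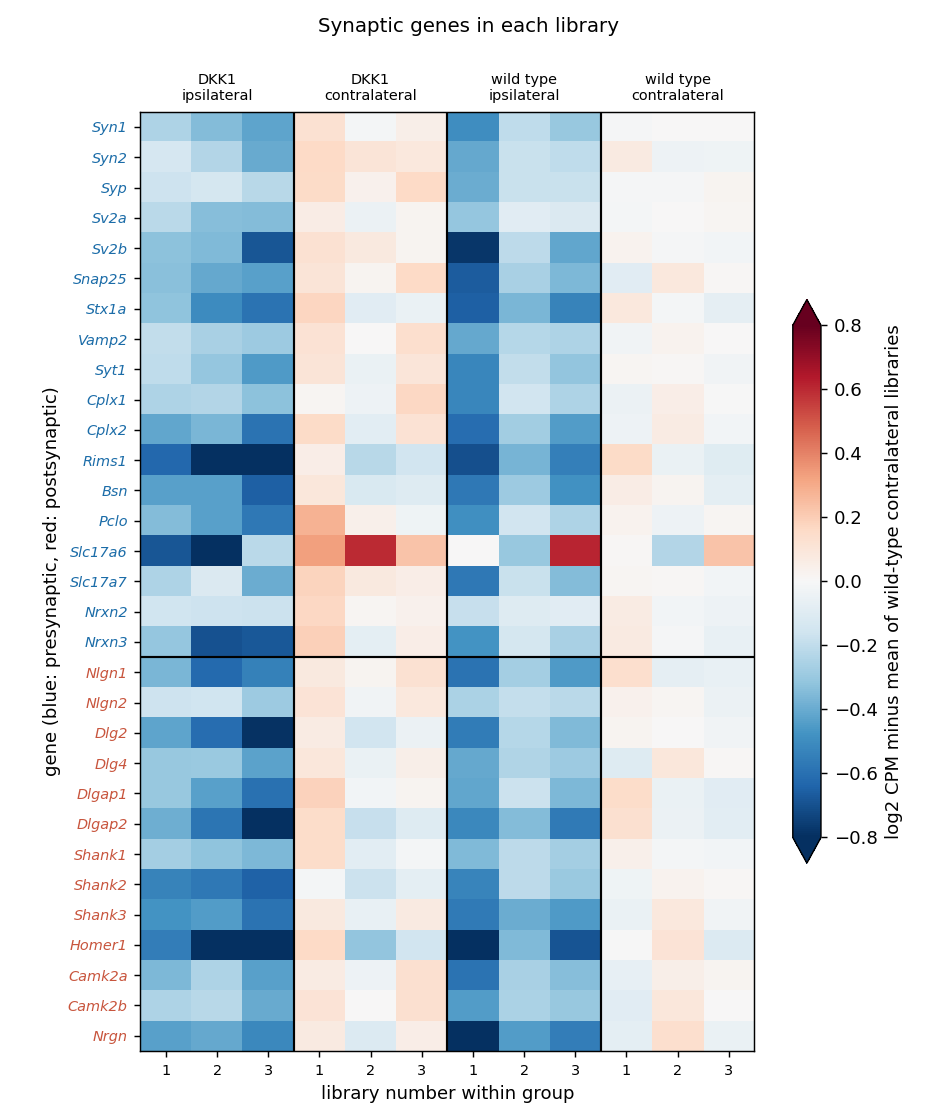
Level of each of the 31 genes (rows) in each of the 12 libraries (columns, by group and library number), as log2 CPM (counts scaled to library size) minus the mean of the 3 wild-type contralateral libraries, clipped at ±0.8. Both ipsilateral blocks are blue for nearly every gene, wild-type ipsilateral 1 is darker than wild-type ipsilateral 2 and 3, and Slc17a6 is the row that departs from its neighbours.

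The first question was which synaptic genes differed between the lesioned and the intact hemisphere. In DKK1 mice all 31 members fell, the 18 presynaptic and the 13 postsynaptic alike, where 22.6% of all 17612 genes tested were called lower (edgeR, adjusted p under 0.05). The log2 fold changes of ipsilateral over contralateral ran from −0.998 for Slc17a6 to −0.24 for Nrxn2, with a median of −0.46 beside 0.01 over all genes tested. As percent changes these are −49.9% to −15.3%, with a median of −27.4%. The ipsilateral and contralateral DKK1 libraries did not overlap for any of the 31 genes, where 27.8% of all genes lay wholly lower. In wild-type mice 27 of 31 fell, where 15.9% of all genes were called lower: 14 of 18 presynaptic and 13 of 13 postsynaptic members. The median log2 fold change there was −0.34, beside 0.01 over all genes, with a range of −0.63 (Homer1) to 0.14 (Slc17a6). The libraries of the hemispheres did not overlap for 30 of 31 genes in wild-type mice, where 23.8% of all genes lay wholly lower. The 4 genes that did not pass in wild-type mice were Sv2a, Nrxn2, Nrxn3 and Slc17a6. In bulk tissue, with counts relative to the whole library, fewer neurons, less RNA per neuron and more RNA from other cells cannot be told apart. Without both wild-type libraries numbered 1, 14 of 31 passed in wild-type mice (7 presynaptic and 7 postsynaptic, median −0.27), and all 31 in DKK1 mice. The part of the smaller wild-type groups in this drop was not tested.

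**Figure D2:**
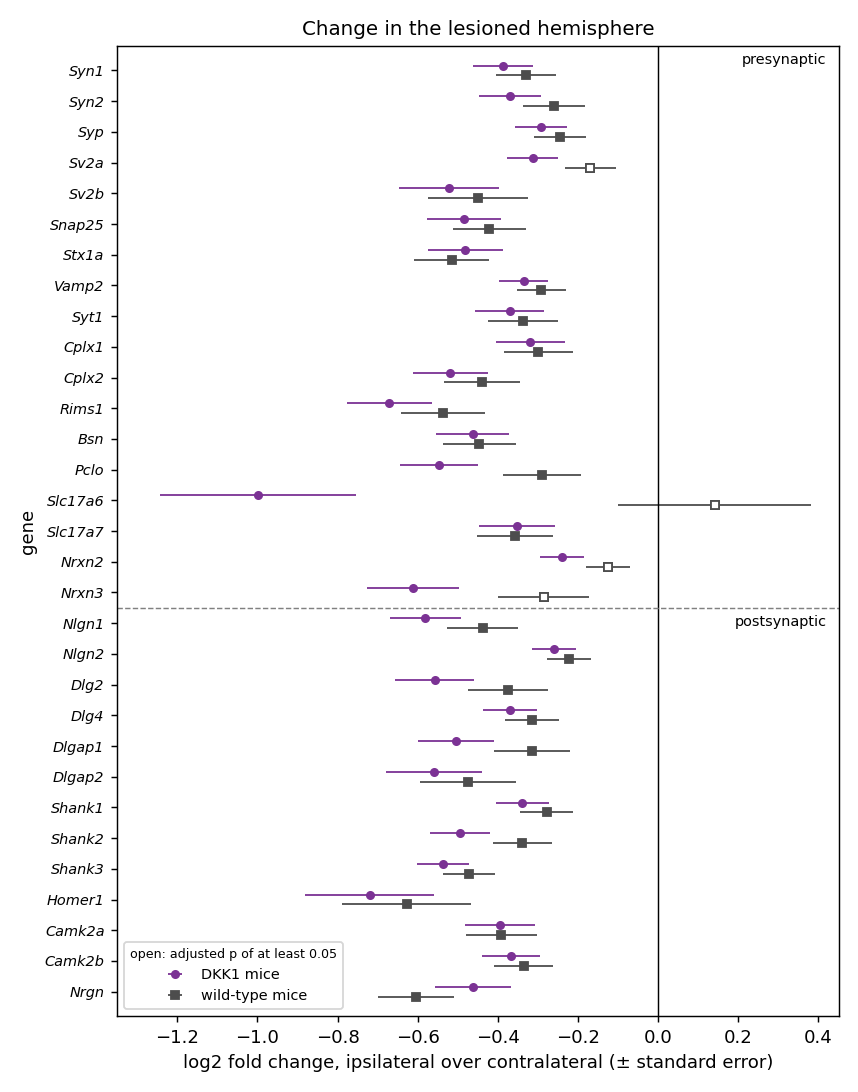
Log2 fold change of ipsilateral over contralateral hemisphere (horizontal axis) for each gene, with its standard error as the bar, in DKK1 mice (purple circles) and wild-type mice (grey squares); open symbols have an adjusted p of at least 0.05. All DKK1 points lie below 0, and the wild-type points do so for every gene but Slc17a6.

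Vesicle membrane proteins and synapsins had the smallest median change among the groups of more than 2 genes, −0.37 in DKK1 and −0.26 in wild-type mice. Synaptophysin (Syp), an abundant membrane protein of the vesicle, stood at 544, 552 and 523 CPM in DKK1 ipsilateral against 677, 625 and 681 CPM in DKK1 contralateral libraries. In wild-type mice it stood at 463, 540 and 540 CPM ipsilaterally against 605, 606 and 618 CPM contralaterally. The hemispheres did not overlap in either genotype, with log2 fold changes of −0.29 ± 0.07 in DKK1 mice (adjusted p = 0.00296) and −0.24 ± 0.07 in wild-type mice (adjusted p = 0.0123). Synapsin 2 (Syn2), which tethers the reserve pool of vesicles, had 299, 279 and 248 CPM in DKK1 ipsilateral against 367, 353 and 348 CPM in DKK1 contralateral libraries. Its wild-type values were 248, 291 and 285 CPM ipsilaterally against 346, 320 and 321 CPM contralaterally. Syn2 fell in both genotypes (−0.37 ± 0.08 with adjusted p = 0.00191 in DKK1 mice, −0.26 ± 0.08 with adjusted p = 0.0205 in wild-type mice), and the wild-type call was lost without wild-type ipsilateral 1 (adjusted p = 0.0783) or wild-type contralateral 1 (0.0658). Its paralog Syn1 fell by 0.39 in DKK1 and by 0.33 in wild-type mice on the log2 scale.

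The vesicle glycoproteins Sv2a, the binding site of the drug levetiracetam, and Sv2b moved by different amounts. Sv2a stood at 330, 303 and 301 CPM in DKK1 ipsilateral against 400, 371 and 390 CPM in DKK1 contralateral libraries. Wild-type libraries held 309, 361 and 354 CPM ipsilaterally against 379, 384 and 388 CPM contralaterally. The hemispheres did not overlap, yet the wild-type difference missed the threshold (−0.17 ± 0.06, adjusted p = 0.0568), while the DKK1 one passed (−0.31 ± 0.06, adjusted p = 0.00178). With same-numbered hemispheres as a block, the wild-type difference of Sv2a passed (adjusted p = 0.0277). With the number as an additive term it did not pass. Sv2b fell in both genotypes, by 0.52 in DKK1 and by 0.45 in wild-type mice on the log2 scale. Of these 5 genes only Syn1 passed in wild-type mice without both libraries numbered 1 (adjusted p = 0.0257), and Syp (0.0613), Sv2b (0.0755), Syn2 (0.176) and Sv2a (0.23) did not.

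All 6 genes of the fusion machinery fell in both genotypes. Syntaxin 1a (Stx1a), the SNARE protein of the plasma membrane, had 142, 125 and 118 CPM in DKK1 ipsilateral against 200, 167 and 171 CPM in DKK1 contralateral libraries. In wild-type mice it had 113, 137 and 123 CPM ipsilaterally against 188, 175 and 169 CPM contralaterally. Every ipsilateral library lay below every contralateral one, and Stx1a was among the few members with a slightly more negative change in wild-type (−0.52 ± 0.09, adjusted p = 0.00169) than in DKK1 mice (−0.48 ± 0.09, adjusted p = 0.00133). Synaptobrevin 2 (Vamp2), the SNARE protein of the vesicle, stood at 463, 443 and 433 CPM in DKK1 ipsilateral against 575, 531 and 583 CPM in DKK1 contralateral libraries. Its wild-type values were 399, 452 and 446 CPM ipsilaterally against 519, 539 and 531 CPM contralaterally. Vamp2 thus changed less than Stx1a, but with the smaller error (−0.34 ± 0.06 with adjusted p = 0.000785 in DKK1 mice, −0.29 ± 0.06 with adjusted p = 0.0034 in wild-type mice). Snap25, the partner of Stx1a and Vamp2 in the SNARE complex, fell by 0.48 in DKK1 and by 0.42 in wild-type mice. Synaptotagmin 1 (Syt1), the calcium sensor, fell by 0.37 in DKK1 and by 0.34 in wild-type mice. Of the complexins, which clamp the SNARE complex before calcium arrives, Cplx2 fell by 0.52 in DKK1 and by 0.44 in wild-type mice, and Cplx1 by 0.32 in DKK1 and by 0.30 in wild-type mice. The wild-type call of Cplx1 was lost without wild-type ipsilateral 1 (adjusted p = 0.0519) or wild-type contralateral 2 (0.0653). When both wild-type libraries numbered 1 were left out, 4 of the 6 fusion genes passed in wild-type mice, and Syt1 (adjusted p = 0.0695) and Cplx1 (0.051) did not.

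The active zone genes had the lowest median among the presynaptic groups with more than 2 members in DKK1 mice, at −0.55. Rims1, which links vesicles to calcium channels, had 182, 159 and 152 CPM in DKK1 ipsilateral against 292, 240 and 252.2 CPM in DKK1 contralateral libraries. Wild-type libraries had 173, 217 and 192 CPM ipsilaterally against 312, 270 and 262 CPM contralaterally. The hemispheres were well apart in both genotypes, at −0.67 ± 0.11 in DKK1 mice (adjusted p = 0.000334) and −0.54 ± 0.11 in wild-type mice (adjusted p = 0.00254). Bassoon (Bsn), a giant scaffold protein of the active zone, stood at 762, 762 and 656 CPM in DKK1 ipsilateral against 1099, 945 and 961 CPM in DKK1 contralateral libraries. In wild-type mice it stood at 692, 843 and 735 CPM ipsilaterally against 1072, 1044 and 978 CPM contralaterally. Its changes were nearly equal, at −0.46 ± 0.09 in DKK1 mice (adjusted p = 0.00136) and −0.45 ± 0.09 in wild-type mice (adjusted p = 0.00313). Piccolo (Pclo), its relative, had 311, 294 and 267 CPM in DKK1 ipsilateral against 481, 408 and 387 CPM in DKK1 contralateral libraries. Its wild-type values were 283, 357 and 335 CPM ipsilaterally against 404, 386 and 400 CPM contralaterally. Pclo fell by 0.55 in DKK1 mice (adjusted p = 0.000734) and by 0.29 in wild-type mice (adjusted p = 0.0358). The wild-type call of Pclo was lost when any 1 of the 6 wild-type libraries but ipsilateral 2 was left out (adjusted p = 0.0594 to 0.133 in those fits). Without both libraries numbered 1, Rims1 and Bsn passed in wild-type mice (adjusted p = 0.0237 and 0.0294) and Pclo did not (0.209).

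Among the 13 paralog comparisons described below, the vesicular glutamate transporters had the largest mean difference within each genotype, in opposite directions. Slc17a7 (VGLUT1) loads vesicles of cortical and hippocampal excitatory neurons, and Slc17a6 (VGLUT2) those of thalamic and other subcortical ones. Their upstream sequences are shown because of these differences, which varied widely between libraries. Each is the 250 bases before the annotated start (RefSeq, GRCm38.p6, plus strand, chr7:51621580-51621829 for Slc17a6 and chr7:45163671-45163920 for Slc17a7), 5′ to 3′, with matches to the GC box GGGCGG on either strand in capitals.
Slc17a6: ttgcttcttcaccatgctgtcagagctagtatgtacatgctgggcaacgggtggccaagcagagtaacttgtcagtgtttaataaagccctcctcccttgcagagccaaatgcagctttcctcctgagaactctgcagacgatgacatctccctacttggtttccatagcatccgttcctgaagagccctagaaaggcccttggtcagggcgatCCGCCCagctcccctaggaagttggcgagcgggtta
Slc17a7: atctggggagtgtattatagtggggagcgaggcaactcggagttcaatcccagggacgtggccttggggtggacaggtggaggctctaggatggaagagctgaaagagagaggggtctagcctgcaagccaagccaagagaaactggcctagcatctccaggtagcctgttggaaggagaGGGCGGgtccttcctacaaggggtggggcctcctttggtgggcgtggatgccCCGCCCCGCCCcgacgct
Slc17a7 had 451, 495 and 407 CPM in DKK1 ipsilateral against 607, 566 and 555 CPM in DKK1 contralateral libraries. In wild-type mice it had 360, 473 and 421 CPM ipsilaterally against 541, 540 and 528 CPM contralaterally. It fell in both genotypes, at −0.35 ± 0.10 in DKK1 mice (adjusted p = 0.00843) and −0.36 ± 0.10 in wild-type mice (adjusted p = 0.012). The wild-type call of Slc17a7 was lost without both libraries numbered 1 (−0.26, adjusted p = 0.0695). Slc17a6 had 22.2, 17.5 and 30.7 CPM in DKK1 ipsilateral against 44.9, 54.1 and 41.9 CPM in DKK1 contralateral libraries. Its wild-type libraries held 35.8, 29.0 and 54.5 CPM ipsilaterally against 36.0, 30.4 and 41.9 CPM contralaterally. All DKK1 ipsilateral libraries lay below all DKK1 contralateral ones, whereas the wild-type hemispheres overlapped. Slc17a6 fell by 0.998 in DKK1 mice (SE 0.24, adjusted p = 0.0055) and stood at 0.14 ± 0.24 in wild-type mice (adjusted p = 0.682), where wild-type ipsilateral 3 carried the high value. The difference between these lesion changes, −1.14 ± 0.34, did not pass across all genes (edgeR adjusted p = 0.435, DESeq2 0.0924, limma-voom 0.604). Slc17a6 is also a marker of thalamic neurons, and 8 other thalamic markers were measured beside it. Their mean log2 level relative to wild-type contralateral libraries was 0.34 to 0.59 in DKK1 ipsilateral, 0.16 to 0.51 in DKK1 contralateral, 0.47 to 0.995 in wild-type ipsilateral and −0.28 to 0.37 in wild-type contralateral libraries. Of these 8 markers, 1 rose and 1 fell in DKK1 lesions, and 5 rose and 1 fell in wild-type lesions, with medians of 0.12 in DKK1 and 0.68 in wild-type mice. In wild-type lesions 1 rose when both libraries numbered 1 were left out. In DKK1 lesions the log2 fold changes of these markers ran from −0.46 (Rora) to 1.07 (Prkcd), with 2 of 8 below 0. In the interaction all 8 markers lay below 0 (median −0.44, 0 of 8 passing by edgeR and 3 at an unadjusted p under 0.05). None was at 0 in any library. How much thalamic tissue each sample held, and its part in the values of Slc17a6, was not tested. Nor was it tested whether these markers mark thalamic neurons alone in lesioned tissue.

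**Figure D3:**
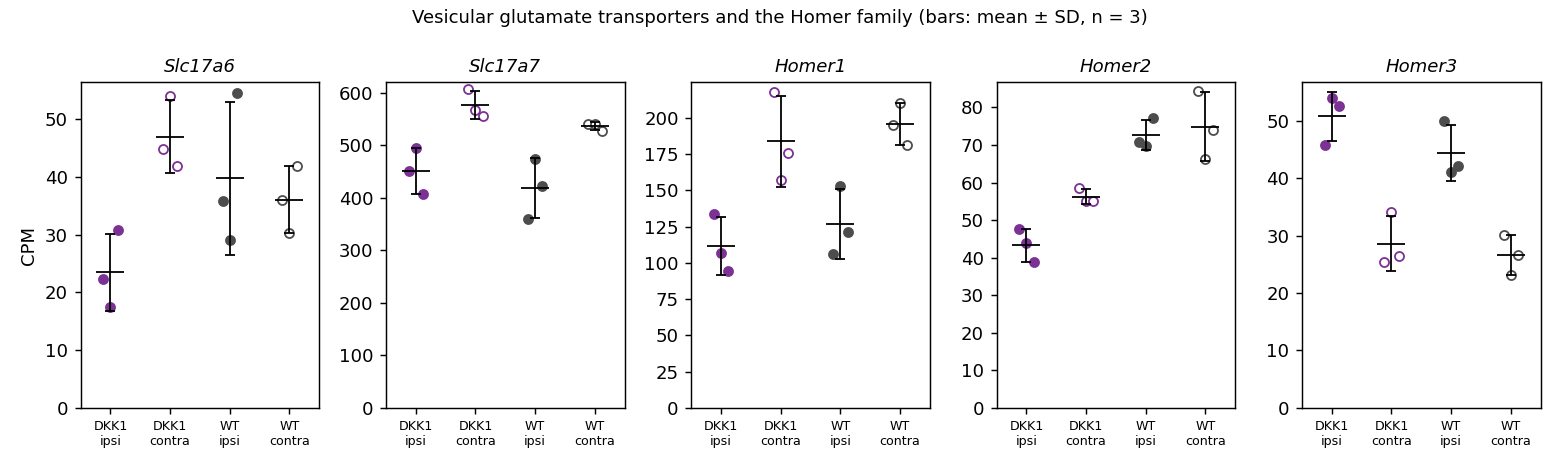
CPM in each library (points) with mean ± SD (n = 3) for Slc17a6, Slc17a7 and the Homer genes, in DKK1 ipsilateral, DKK1 contralateral, wild-type ipsilateral and wild-type contralateral libraries; all vertical axes start at 0. Slc17a6 is low in DKK1 ipsilateral libraries and spread widely in wild-type ipsilateral ones, Homer1 is lower and Homer3 higher on the ipsilateral side, and Homer2 is lower in DKK1 mice.

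The neurexins, presynaptic adhesion proteins, were the other presynaptic genes short of the threshold in wild-type mice. Nrxn2 changed least of the members: 376, 375 and 374 CPM in DKK1 ipsilateral against 472, 426 and 431 CPM in DKK1 contralateral libraries. The wild-type values were 371, 393 and 396 CPM ipsilaterally against 440, 415 and 409 CPM contralaterally. It fell by 0.24 in DKK1 mice (SE 0.06, adjusted p = 0.00325) and stood at −0.13 ± 0.05 in wild-type mice (adjusted p = 0.0924). With the pair as a random block that difference passed (adjusted p = 0.0466), and with genotype by number as a fixed block it did not (0.11). Nrxn3 had 233, 178 and 180 CPM in DKK1 ipsilateral against 330, 274 and 300 CPM in DKK1 contralateral libraries. Its wild-type values were 208, 262 and 242 CPM ipsilaterally against 304, 287 and 277 CPM contralaterally. No hemisphere pair overlapped for either neurexin. Nrxn3 fell by 0.61 in DKK1 mice (adjusted p = 0.000992) and stood at −0.29 ± 0.11 in wild-type mice (adjusted p = 0.0675), where the pairing block gave adjusted p = 0.0122. With the number as an additive term neither neurexin passed in wild-type mice. Of their postsynaptic partners, Nlgn1, found mainly at excitatory synapses, had 95.3, 79.8 and 84.4 CPM in DKK1 ipsilateral against 130, 125 and 134 CPM in DKK1 contralateral libraries. Wild-type libraries had 81.5, 102 and 89.7 CPM ipsilaterally against 135, 117 and 118 CPM contralaterally. Nlgn2, found at inhibitory synapses, stood at 361, 363 and 332 CPM in DKK1 ipsilateral against 437, 398 and 429 CPM in DKK1 contralateral libraries. Its wild-type values were 340, 355 and 349 CPM ipsilaterally against 415, 410 and 392 CPM contralaterally. Both neuroligins fell in both genotypes, Nlgn1 by 0.58 in DKK1 and by 0.44 in wild-type mice (adjusted p = 0.000264 and 0.00304), Nlgn2 by 0.26 in DKK1 and by 0.22 in wild-type mice (adjusted p = 0.0021 and 0.00864). Nlgn1 also passed in wild-type mice without both libraries numbered 1 (adjusted p = 0.0258), and Nlgn2 (0.0671), Nrxn2 (0.499) and Nrxn3 (0.384) did not.

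All 8 scaffold genes of the postsynaptic density fell in both genotypes. Of the 8, 3 (Dlg4, Shank2 and Shank3) passed in wild-type mice without both libraries numbered 1. The other 5 then had adjusted p = 0.0645 (Shank1), 0.0826 (Dlgap2), 0.0838 (Dlg2), 0.0844 (Homer1) and 0.197 (Dlgap1). Shank3, the scaffold whose loss causes Phelan-McDermid syndrome in humans, had the smallest p of all members in both lesion comparisons. It had 302, 308 and 279 CPM in DKK1 ipsilateral against 444, 404 and 442 CPM in DKK1 contralateral libraries. The wild-type values were 284, 320 and 307 CPM ipsilaterally against 406, 446 and 412 CPM contralaterally. The groups were far apart for their spread, at −0.54 ± 0.07 in DKK1 mice (adjusted p = 5.14e-05) and −0.47 ± 0.07 in wild-type mice (adjusted p = 0.000293). Shank2 had 227, 221 and 210 CPM in DKK1 ipsilateral against 325, 292 and 311 CPM in DKK1 contralateral libraries. Its wild-type values were 228, 284 and 268 CPM ipsilaterally against 321, 335 and 330 CPM contralaterally. Shank2 fell by 0.50 in DKK1 mice (SE 0.07, adjusted p = 0.000232) and by 0.34 in wild-type mice (SE 0.07, adjusted p = 0.00463). Shank1 moved less, with 612, 590 and 575 CPM in DKK1 ipsilateral against 820, 698 and 730 CPM in DKK1 contralateral libraries. Wild-type libraries held 579, 638 and 611 CPM of Shank1 ipsilaterally against 761, 730 and 726 CPM contralaterally. It fell by 0.34 in DKK1 and by 0.28 in wild-type mice (adjusted p = 0.00128 and 0.0071). Dlg4 (PSD-95), the central scaffold of the density, had 308, 310 and 283 CPM in DKK1 ipsilateral against 405, 367 and 393 CPM in DKK1 contralateral libraries. Wild-type libraries had 287, 321 and 310 CPM ipsilaterally against 354, 405 and 383 CPM contralaterally. Dlg4 fell by 0.37 in DKK1 and by 0.31 in wild-type mice (adjusted p = 0.000807 and 0.00403).

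Homer1, which ties Shank to metabotropic glutamate receptors, showed the largest fall of any postsynaptic member: 133, 107 and 94.3 CPM in DKK1 ipsilateral against 218, 157 and 176 CPM in DKK1 contralateral libraries. Its wild-type libraries had 106, 153 and 121 CPM ipsilaterally against 195, 211 and 181 CPM contralaterally. The hemispheres did not overlap in either genotype, at −0.72 ± 0.16 in DKK1 mice (adjusted p = 0.00322) and −0.63 ± 0.16 in wild-type mice (adjusted p = 0.0108). Dlg2 (PSD-93), a relative of PSD-95, fell by 0.56 in DKK1 and by 0.38 in wild-type mice. Of the linkers between PSD-95 and Shank, Dlgap1 fell by 0.51 in DKK1 and by 0.32 in wild-type mice, and Dlgap2 by 0.56 in DKK1 and by 0.48 in wild-type mice. The wild-type call of Dlgap1 was lost without wild-type ipsilateral 1, ipsilateral 3 or contralateral 1 (adjusted p = 0.0812, 0.0671 and 0.0805).

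The upstream sequences of Shank3 and Homer1 are shown as those of the scaffold genes with the smallest p and the largest fall, 250 bases before the RefSeq start (GRCm38.p6, plus strand, chr15:89499358-89499607 for Shank3 and chr13:93303507-93303756 for Homer1), 5′ to 3′, with GC boxes in capitals.
Shank3: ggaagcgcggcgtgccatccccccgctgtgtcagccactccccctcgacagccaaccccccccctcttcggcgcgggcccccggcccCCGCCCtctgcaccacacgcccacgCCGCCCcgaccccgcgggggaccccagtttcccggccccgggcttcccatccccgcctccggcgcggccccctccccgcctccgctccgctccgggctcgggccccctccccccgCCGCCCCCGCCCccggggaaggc
Homer1: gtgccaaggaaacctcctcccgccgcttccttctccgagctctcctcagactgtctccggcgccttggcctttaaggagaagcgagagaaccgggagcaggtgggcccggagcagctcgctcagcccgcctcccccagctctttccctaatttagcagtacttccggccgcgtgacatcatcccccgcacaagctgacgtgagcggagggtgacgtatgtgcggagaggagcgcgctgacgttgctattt
The Shank3 sequence is 82.4% G and C, the highest of the 24 members with a promoter entry, and the Homer1 sequence 62.4%. Of the 31 members, 24 had an entry in the promoter table. The GC box (GGGCGG, either strand) was found in 14 of these 24 (58.3%), against 32.7% of all 32851 promoters of that length. TATAAA was found in 1 (Sv2b, 4.17%, against 12.4% of all), CCAAT in 3 (12.5%, against 33.8%) and the cAMP response element TGACGTCA in 1 (Syn1, 4.17%, against 1.55%), each on either strand. The Homer1 sequence held none of these 4 motifs. The members' sequences had a median of 61.2% G and C, beside 52.4% for all promoters, and GC boxes are themselves made of G and C. These are matches of letters in 1 window and describe the genes, not their change.

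All 3 calmodulin genes fell in both genotypes, with near-equal medians of −0.40 in DKK1 and −0.39 in wild-type mice. Nrgn, which holds calmodulin in dendritic spines, had 454, 462 and 430 CPM in DKK1 ipsilateral against 646, 571 and 637 CPM in DKK1 contralateral libraries. The wild-type values were 346, 451 and 418 CPM ipsilaterally against 582, 674 and 591 CPM contralaterally. Nrgn fell by 0.46 in DKK1 mice (SE 0.10, adjusted p = 0.00177) and by 0.60 in wild-type mice (SE 0.10, adjusted p = 0.000659), and wild-type ipsilateral 1 held the lowest value of all 12 libraries. The subunits of calcium/calmodulin-dependent kinase II, which phosphorylates glutamate receptors when calcium enters the spine, fell too. Camk2a fell by 0.40 in DKK1 and by 0.39 in wild-type mice, and Camk2b by 0.37 in DKK1 and by 0.34 in wild-type mice. All 3 also passed in wild-type mice without both libraries numbered 1.

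Same-numbered hemispheres of a genotype were compared as assumed pairs, since the labels do not say that a number marks 1 animal. Their deviations from the group means went together in every pair. Differently numbered hemispheres were not compared in this way, so the pairing is not established. All 31 members were lower ipsilaterally in 5 of the 6 pairs. In the sixth, wild-type number 3, 30 of 31 were lower and Slc17a6 was higher by 0.38. The median change over members was −0.45, −0.33 and −0.55 in the DKK1 pairs and −0.52, −0.21 and −0.30 in the wild-type pairs. The wild-type pair of number 1 thus lay among the DKK1 pairs and the other wild-type pairs above them.

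**Figure D4:**
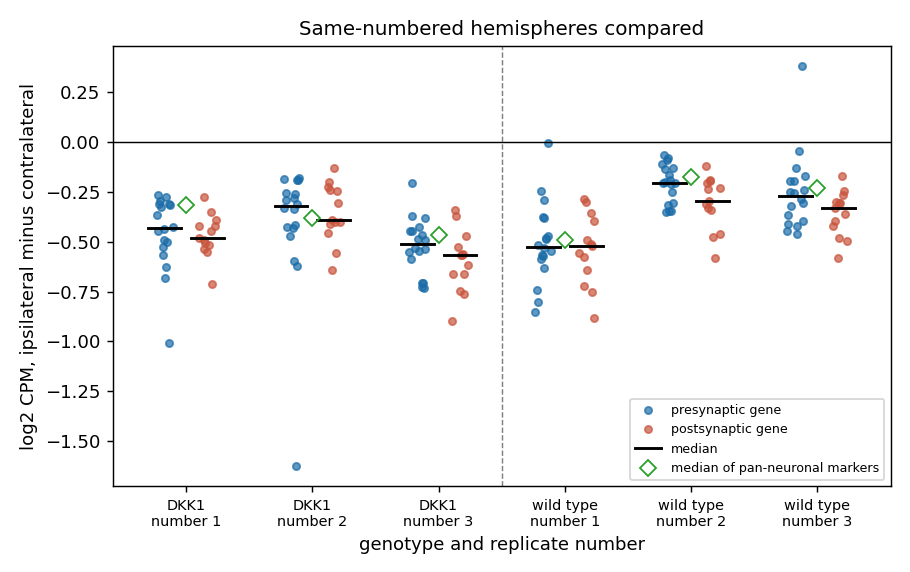
Log2 CPM of ipsilateral minus contralateral hemisphere for each gene in each same-numbered pair (DKK1 1 to 3, then wild type 1 to 3), presynaptic genes in blue and postsynaptic genes in red, with the median of each as a bar and the median of 12 pan-neuronal markers as a green diamond. Nearly all points lie below 0, and the pan-neuronal diamonds lie close to the medians of the members.

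The median log2 fold changes of presynaptic and postsynaptic members were −0.43 and −0.49 in DKK1 mice and −0.31 and −0.38 in wild-type mice. The mean over presynaptic members minus that over postsynaptic members, relative to wild-type contralateral libraries, was 0.05 to 0.11 in DKK1 ipsilateral, 0.04 to 0.10 in DKK1 contralateral, 0.05 to 0.13 in wild-type ipsilateral and −0.04 to 0.03 in wild-type contralateral libraries. The hemispheres overlapped in this difference in DKK1 mice and did not in wild-type mice, where the ipsilateral libraries lay higher. The members as a whole also moved with general markers of neurons. All 12 pan-neuronal markers (among them Rbfox3, the NeuN antigen) fell in DKK1 lesions with a median of −0.40, and 9 of 12 in wild-type lesions with a median of −0.28. The mean over the 31 members minus the mean over these markers stayed between −0.08 and 0.06 in all 12 libraries. In wild-type mice it was −0.061 to −0.021 ipsilaterally and −0.013 to 0.015 contralaterally, without overlap. In DKK1 mice it was −0.08 to −0.011 ipsilaterally and −0.032 to 0.056 contralaterally, with overlap.

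Within families, differences in lesion change between paralogs were compared by a test with little power to pass adjustment. Of 13 such comparisons over the 6 same-numbered pairs, chosen after seeing the data, 5 had the same member with the lower value in 6 of 6 pairs. These were Sv2b against Sv2a (−0.26 ± 0.15, mean difference of log2 changes ± SD, n = 6), Cplx2 against Cplx1 (−0.17 ± 0.08), Nrxn3 against Nrxn2 (−0.27 ± 0.18), Shank2 against Shank1 (−0.11 ± 0.07) and Shank3 against Shank1 (−0.20 ± 0.08). Each had p = 0.03125 by an exact two-sided sign-flip permutation test, the smallest that 6 pairs allow. After adjustment over the 13 comparisons it was 0.0813 for each of the 5, and none of the 13 passed. At that smallest p, adjustment could pass only if most of the 13 comparisons reached it. The Shank comparisons also share genes, and the test rests on the assumed pairing, so no conclusion about paralogs is drawn. Camk2b against Camk2a (0.04 ± 0.07) and Syn2 against Syn1 (0.04 ± 0.06) had the smallest mean differences beside Bsn against Pclo (−0.04 ± 0.14).

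The second question was whether the members differed between DKK1 and wild-type mice. Between lesioned hemispheres 0 of 31 passed by edgeR, where 2.37% of all genes were called. At an unadjusted p under 0.05 there were 5 (Shank2, Slc17a6, Nrxn3, Rims1 and Dlg2, all lower in DKK1 mice), DESeq2 called 2 (Shank2 with adjusted p = 0.0332 and Slc17a6 with 0.0263) and limma-voom 0. The smallest adjusted p was that of Shank2 (−0.24 ± 0.07, adjusted p = 0.102), followed by Slc17a6 (−0.76 ± 0.24, adjusted p = 0.119) and Nrxn3 (−0.27 ± 0.11, adjusted p = 0.211). Shank2 was the only member whose lesioned DKK1 libraries (210 to 227 CPM) all lay below the wild-type ones (228 to 284 CPM), where 7.26% of all genes did so. Its closest wild-type value was that of wild-type ipsilateral 1. Without that library Shank2 and Sv2a passed (adjusted p = 0.00613 and 0.0372), and without DKK1 ipsilateral 1 Nrxn3 did (adjusted p = 0.0411). Without wild-type ipsilateral 1 and contralateral 1 together Rims1 passed as well (adjusted p = 0.0433). The shares of all genes called by DESeq2 or with libraries left out are not given here. Leaving Slc17a6 aside, the interval of 2 standard errors around the log2 difference lay within −0.51 to 0.34 for all other members.

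By role, the 8 scaffold genes were all below 0 in this comparison, with a median of −0.13, as were the 3 active zone genes (median −0.16). The 3 calmodulin genes were all above 0 (median 0.05), and 5 of the 6 fusion genes (median 0.03). Without both wild-type libraries numbered 1 the medians were −0.17 for the scaffolds and −0.25 for the active zone, and those of the calmodulin and fusion genes turned to −0.01 and −0.07. Over all 31 members the median was −0.03 with 18 below 0, beside a median of 0.02 for all genes tested. Genes outside the members also lay below 0: 28 of 35 other presynaptic genes, 23 of 30 other postsynaptic genes and 7 of 12 pan-neuronal markers. The share of all genes below 0 is not given here, and whether the roles differ was not tested.

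Between intact hemispheres 0 of 31 passed by edgeR, DESeq2 or limma-voom, where edgeR called 0.88% of all genes, and 0 had an unadjusted p under 0.05. Syn2, Syp, Slc17a6 and Slc17a7 had all 3 DKK1 contralateral libraries above the wild-type ones, where 5.84% of all genes did. For Slc17a6 this was in effect a tie, at 41.94 CPM in DKK1 contralateral 3 against 41.93 CPM in wild-type contralateral 3. The values of Syp, given above, reached an adjusted p of 0.963 (0.12 ± 0.07). In the interaction, the lesion change in DKK1 mice minus that in wild-type mice, 0 of 31 passed by edgeR, DESeq2 or limma-voom, where 0.00568% of all genes were called. Slc17a6 alone had an unadjusted p under 0.05, and Nrxn3 (−0.33 ± 0.16) and Pclo (−0.26 ± 0.14) followed it with adjusted p = 0.55 and 0.583. The lesion change was the more negative in DKK1 mice for 28 of the 31 members, and Stx1a, Slc17a7 and Nrgn were the exceptions. Neuronal genes outside the members leaned the same way: 33 of 35 other presynaptic genes, 23 of 30 other postsynaptic genes and 11 of 12 pan-neuronal markers. The median of the interaction was −0.104 over the pan-neuronal markers and −0.065 over the members. The share of all genes below 0 is not given here. Members of 1 library share its RNA, so the count of 28 does not come from 31 independent observations. Across the members the lesion changes of both genotypes had a Pearson r of 0.73 without Slc17a6 (n = 30 genes) and of 0.05 with it (n = 31).

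**Figure D5:**
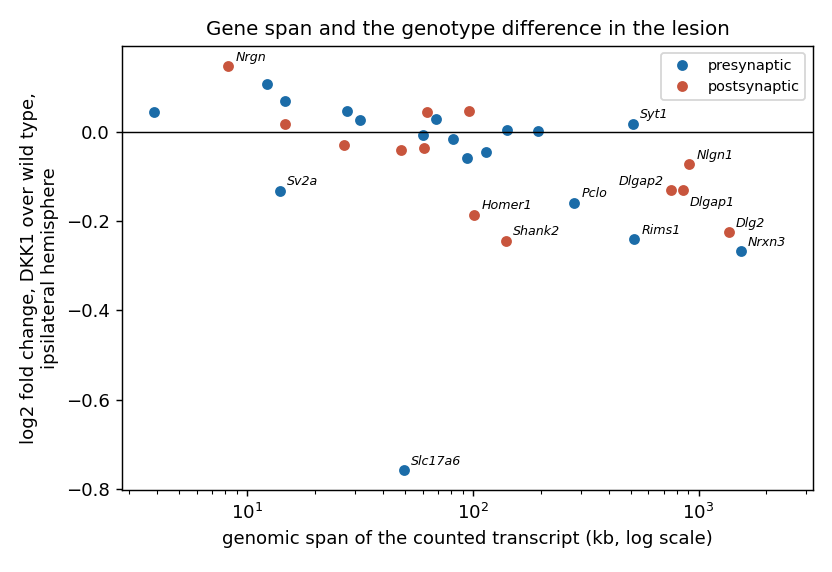
Log2 fold change of DKK1 over wild type in the ipsilateral hemisphere against the genomic span of the counted transcript (kb, log axis), presynaptic genes in blue and postsynaptic genes in red. Members that span more than 100 kb lie mostly below 0, and Slc17a6 lies apart at −0.76.

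One property that the choice of genes did not use, the genomic length from first to last exon, went with the genotype difference between lesioned hemispheres. Across the 31 members the Spearman correlation of span with the lesioned-side log2 fold change of DKK1 over wild type was −0.59, and with the lesion change it was −0.62 in DKK1 mice and −0.20 in wild-type mice. The longest members were Nrxn3 (1540 kb, −0.27), Dlg2 (1358 kb, −0.22) and Nlgn1 (910 kb, −0.07), and the shortest were Vamp2 (3.85 kb, 0.04), Nrgn (8.25 kb, 0.15) and Slc17a7 (12.2 kb, 0.11). The 13 members longer than 100 kb, a boundary set after seeing the data, had a median of −0.13 with 10 of them below 0. The 18 shorter ones had a median of 0.02 with 8 below 0. The same correlation was −0.48 over 65 other synaptic genes and −0.24 over 15862 protein-coding genes, so its sign is shared by genes of other kinds. Transcript length, a related property, had a Spearman correlation of −0.70 with the lesioned-side difference over the members, beside −0.24 over all protein-coding genes tested. On the intact side the correlation of span with the genotype difference was −0.12 over the members. The genes share libraries and depth, so these are descriptions. Without both wild-type libraries numbered 1, span correlated at −0.63 (members) and −0.41 (other synaptic genes) with the lesioned-side genotype difference. Its correlation with the wild-type lesion change was −0.004 over members.

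Other genes of the same pathways moved with the members. Of 35 further presynaptic genes 33 fell in DKK1 lesions (median −0.44) and 27 in wild-type lesions (median −0.30). Without wild-type ipsilateral 1 the wild-type count was 13, and without both wild-type libraries numbered 1 it was 12. Synaptoporin (Synpr), a vesicle protein related to Syp, fell by 0.85 in DKK1 (adjusted p = 1.82e-05) and by 0.58 in wild-type mice (adjusted p = 0.00058). Rims2, a paralog of Rims1, fell by 0.65 in DKK1 and by 0.35 in wild-type mice (adjusted p = 0.00869 in wild type). Ppfia2, a liprin of the active zone, fell by 0.42 in DKK1 and by 0.18 in wild-type mice (adjusted p = 0.0148 in wild type, and 0.13 without both libraries numbered 1). Of 30 further postsynaptic genes 28 fell in DKK1 lesions (median −0.43) and 24 in wild-type lesions (median −0.32), and in each genotype 1 rose. Without both wild-type libraries numbered 1, 18 fell and 1 rose in wild-type lesions. Dlgap3, a relative of Dlgap1, fell by 0.64 in DKK1 and by 0.60 in wild-type mice, and Dlg3 by 0.44 in DKK1 and by 0.30 in wild-type mice.

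The gene that rose was Homer3, a paralog of Homer1. It had 45.9, 54.0 and 52.6 CPM in DKK1 ipsilateral against 25.4, 34.1 and 26.4 CPM in DKK1 contralateral libraries. Wild-type libraries had 50.1, 41.2 and 42.2 CPM ipsilaterally against 30.1, 23.1 and 26.6 CPM contralaterally. Homer3 thus rose in both genotypes without overlap (0.82 ± 0.13 with adjusted p = 0.000332 in DKK1 mice, 0.74 ± 0.13 with adjusted p = 0.00134 in wild-type mice), opposite to Homer1. Homer2, the third paralog, was the only one of these 65 further synaptic genes to pass between the lesioned hemispheres by edgeR. It had 47.5, 43.8 and 38.7 CPM in DKK1 ipsilateral against 70.8, 69.8 and 77.1 CPM in wild-type ipsilateral libraries, a difference of −0.74 ± 0.09 (adjusted p = 0.00138). On the intact side it had 58.5, 55.1 and 55.1 CPM in DKK1 mice against 84.4, 66.2 and 74.1 CPM in wild-type mice (−0.41 ± 0.09, adjusted p = 0.0738). That difference passed by DESeq2 (adjusted p = 0.0068) and with the library number as an additive block (adjusted p = 0.0476). The DKK1 libraries of Homer2 lay below the wild-type ones in both hemispheres. Without wild-type ipsilateral 1, 6 further presynaptic and 5 further postsynaptic genes, Homer2 among them, passed as lower in DKK1 lesioned hemispheres, and without both wild-type libraries numbered 1 these counts were 7 and 6.

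Markers of other cells moved beside the members. All 10 microglia and macrophage markers rose in DKK1 lesions (median 2.14) and 9 of 10 in wild-type lesions (median 1.79). Their summed level was 1538 to 1751 CPM in DKK1 ipsilateral, 317 to 384 CPM in DKK1 contralateral, 993 to 1580 CPM in wild-type ipsilateral and 334 to 490 CPM in wild-type contralateral libraries. All 6 fibroblast markers rose in both genotypes (medians 3.78 in DKK1 and 2.82 in wild-type mice), with sums of 685 to 909 CPM in DKK1 ipsilateral, 76.6 to 102 CPM in DKK1 contralateral, 373 to 907 CPM in wild-type ipsilateral and 81.5 to 155 CPM in wild-type contralateral libraries. Wild-type ipsilateral 1 held the top of both wild-type ranges, and it also had the lowest members of its group. All 9 markers of striatal neurons fell in both genotypes (medians −1.04 in DKK1 and −0.99 in wild-type mice), more than the members did. Of 9 cortical excitatory markers 7 fell in DKK1 and 6 in wild-type mice, and of 7 inhibitory neuron markers 6 in each. Of astrocyte markers 5 of 7 rose and 1 fell in DKK1 lesions, and 4 of 7 rose in wild-type lesions. Of oligodendrocyte markers 5 of 6 rose in each genotype, and of endothelial markers 3 of 6 rose in DKK1 and 2 of 6 in wild-type mice. Of 8 T and B cell markers 7 rose and Cd4 fell in both genotypes, and up to 4 of them were at 0 counts in contralateral libraries. No marker of the other lists was at 0 in any library. Without both wild-type libraries numbered 1, the wild-type counts were 5 of 12 pan-neuronal, 5 of 9 cortical and 2 of 7 inhibitory markers lower and 0 of 6 oligodendrocyte markers higher. The counts of striatal, astrocyte, microglia, endothelial, fibroblast and T and B cell markers were as in the full data. Between lesioned hemispheres 0 of 10 microglia and 0 of 6 fibroblast markers passed in the full data, and 8 of 10 and 6 of 6 were higher in DKK1 mice without those libraries, the setting in which Shank2, Sv2a and Rims1 were lower. In the full data 1 of 6 endothelial and 1 of 8 T and B cell markers were higher in DKK1 lesions. Without those libraries the counts were 2 of 6 and 6 of 8. Astrocyte markers went from 0 to 1 of 7, and oligodendrocyte markers stayed at 0 of 6. The part of these cells in the values of the synaptic genes was not tested.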

How the data were processed

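Synaptic genes were measured by RNA sequencing in 12 libraries. Per the labels' protocols, the RNA was isolated by Qiazol and column purification (miRNeasy micro, DNase-treated), and the library kit was a strand-specific one, NEBNext Ultra II directional. The submitters' processing notes name STAR 2.7.0f, HOMER 4.11, DESeq2 and the build mm10; whether counting used the strand is not given in the sources used here. Raw counts were deposited for 1 RefSeq transcript per gene symbol, and a TPM table was deposited beside them, with another transcript for some genes. Totals of 21209920 to 26911840 counts per library set the precision of the counts.

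The deposited counts were tested in R 4.3.3 with edgeR 4.0.16 (expression filter with a minimum count of 10, by group; TMM; 1 robust quasi-likelihood fit of 4 groups; two-sided; Benjamini-Hochberg over 17612 genes; threshold 0.05). Adjusted p-values are edgeR's unless another tool is named. CPM uses TMM-scaled library sizes, and log2 CPM a prior count of 2. Alternatives were RLE and upper-quartile scaling, no filter, 1 CPM in 3 libraries, DESeq2 1.42.0, limma-voom and limma 3.58.1 on log2(TPM + 1), which understates changes of low genes, 3 replicate blocks, a fit of only the 2 groups compared, and each library left out. The method was tested on simulated data.

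The main fit used no replicate block. Same-numbered hemispheres of a genotype are treated as assumed pairs only in the pair comparisons, the paralog test and the replicate blocks. This was done because their deviations from the group means correlated at 0.276, 0.125 and 0.105 in DKK1 mice and 0.487, 0.310 and 0.297 in wild-type mice, each over 0.1. The pairing comes from the labels' numbers and this check.

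The members and lists were chosen with earlier results of these data known. Values in every library are given for the 3 members per side with the smallest p in each lesion comparison, the 3 with the smallest p in each genotype comparison and the interaction, the 3 per side with the smallest lesion change, and both transporters; Homer1, Homer2 and Homer3 were added after their values were seen. Of other lists, up to 3 genes with the smallest p were eligible to be named.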

Additional observations from a re-analysis of the deposited data

How the results depend on the processing

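In DKK1 lesions all 31 members were called lower under every alternative tried. In wild-type lesions the count ranged from 23 to 29 when any 1 library was left out, was 29 with genotype-by-number replicate block and 30 with number as a random block, and fell to 14 without wild-type ipsilateral 1 and contralateral 1 together, a setting with 1 fewer library in each group that was added after seeing the data. These 2 blocks changed the calls of Sv2a, Nrxn3 and, in the random block, Nrxn2, and no other call of a member. With the number as an additive term the wild-type count stayed 27, and Sv2a, Nrxn2, Nrxn3 and Slc17a6 did not pass. Between lesioned hemispheres 0 members were called, but 2 by DESeq2, 1 on the deposited TPM, 0 to 2 with any 1 library left out, and 3 without both wild-type libraries numbered 1; the cause was not tested. Between intact hemispheres and in the interaction the count stayed 0 throughout.

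Slc17a6 in wild-type lesions was −0.157 without wild-type ipsilateral 3, and leaving out single libraries gave −0.157 to 0.322, none passing. Homer2 in wild-type lesions, −0.05, was 0.005 on the deposited TPM, −0.129 to 0.047 with single libraries left out (0.047 without wild-type contralateral 1) and 0.066 without both libraries numbered 1, none passing. The median log2 changes of presynaptic and postsynaptic members moved by less than the spread between libraries in all alternatives. The median standard error of a member's genotype difference was 0.09. Between libraries of a group, chi-square per degree of freedom over genes was 4.07 to 26.5, above the value of 1 that counting error alone gives.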
